A study of Mus musculus with 12 samples.

Results

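Fn3k, Fn3krp, Glo1, Park7 and Hagh are 5 of the 29737 genes in the table of bone marrow neutrophils treated with bile acids, and they encode enzymes that undo the attachment of sugars to proteins or remove the reactive carbonyls that cause it. Fn3k was chosen because its rise with Tβ-MCA was the largest among the genes shown in a heatmap of the study, so its comparison with PBS is given as a description, without a test. The other 4 genes were chosen for their function. Bone marrow neutrophils of wild-type mice received, over 24 h in culture, the vehicle PBS, 200 µM TCA, 200 µM GCA or Tβ-MCA, for which the labels give 10 µM and the study's methods give the same dose as for the other bile acids. Each group had 3 samples. Replicates carry the numbers 3, 5 and 6 for PBS and the numbers 3, 4 and 5 for the bile acids. TCA and GCA are cholic acid conjugated with taurine and with glycine, and Tβ-MCA is the taurine conjugate of β-muricholic acid, a bile acid of rodents. Total counts lay between 32757389 and 41375925 per sample (median 36020674). The sources used here do not say whether the samples of a group came from different mice, so the p-values measure the spread between these samples, which may be technical.

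Glucose and other reducing sugars react with lysines of proteins without an enzyme and form fructosamines, which can go on to advanced glycation end products (AGEs). Fructosamine-3-kinase, the product of Fn3k, phosphorylates the bound sugar, which makes the adduct unstable, so that the lysine is set free. The related protein encoded by Fn3krp acts on ribulosamines and psicosamines. Methylglyoxal, a by-product of glycolysis that glycates proteins quickly, is converted by glyoxalase 1 (Glo1) with glutathione and then by glyoxalase 2 (Hagh) into D-lactate. Park7 encodes DJ-1, a redox-sensitive protein for which glyoxalase and deglycase activities have been described and debated. Neutrophils rely largely on glycolysis for energy.

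Fn3k and Fn3krp are neighbours on the forward strand of chromosome 11. In the positions of the deposited table (GRCm38), Fn3k spans 121434913 to 121450491 and Fn3krp spans 121421401 to 121431288, which ends 3625 bases before it. Both are protein-coding, and no other gene of the table overlaps either of them. Since reads of a near-identical copy could be assigned to the wrong gene, the coding sequences were compared. Each has 930 bases, and 619 of 922 aligned bases (67.1%) were identical. The longest stretch that any transcripts of the pair share is 18 bases. It lies in exon 6 of each gene, and 75 coding bases around it are shown from GENCODE vM21, with the shared stretch in capitals, because it holds the longest exact match between them. In this window, 51 of 75 bases were identical.
Fn3k, chr11:121450132-121450206, forward strand: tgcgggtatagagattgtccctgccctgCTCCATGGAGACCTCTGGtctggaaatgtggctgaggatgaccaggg
Fn3krp, chr11:121429442-121429516, forward strand: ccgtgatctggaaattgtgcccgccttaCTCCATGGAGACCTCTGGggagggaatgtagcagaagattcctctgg

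Among the other genes, Glo1 lies on chromosome 17 from 30592866 to 30612659 on the reverse strand, and its position in the table differs from that of GENCODE vM21. Hagh lies on chromosome 17 from 24840143 to 24864450 on the forward strand and overlaps Fahd1 on the other strand, with 0 shared exon bases. Park7 lies on chromosome 4 from 150897133 to 150914437 on the reverse strand.

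A pair of libraries stood apart from their groups. A response score was calculated after the data had been seen, from 673 genes with at least a 2-fold difference between Tβ-MCA replicates 3 and 4 and PBS at an adjusted p under 0.05, without the 5 genes described here. It places the mean of PBS at 0 and the mean of these replicates at 1. Tβ-MCA replicate 5 reached 0.272, and GCA replicate 4 reached 0.336, while the other GCA and TCA samples lay between 0.0351 and 0.106. Whether the labels of these 2 libraries are right was not tested, and all values keep the labels as given. Replicate 3 of every group differed from the others in another way, with summed basophil and mast cell markers of 55.4 to 65.4 CPM against 29.6 to 37.8 CPM in the remaining 8 samples. The labels describe the cells as Ly6G+ and sorted with magnetic beads, while the study's methods describe enrichment of neutrophils by a kit. All 13 neutrophil markers were present, with summed levels of 38441 to 59589 CPM (counts relative to the library size scaled by the TMM method). With Tβ-MCA 12 of them had a negative log2 fold change, where the median of all genes tested was 0.0041. Of these markers, 4 were called lower and 0 higher (3.18% and 4.44% of all genes tested). Without replicate 5, 10 were lower, beside 1617 of 17131 among all genes. Ly6g itself had 7.54, 8.32 and 12.9 CPM with Tβ-MCA and 17.8 to 21.4 CPM with PBS. Markers of other cells were present as well. With Tβ-MCA, 1 marker each of the erythroid, eosinophil and B cell lists was called lower, and 0 of the basophil, T and NK cell and platelet lists, again beside 3.18% of all genes. The summed level of 12 monocyte and macrophage markers was 1111 to 1134 CPM with PBS and 998 to 1175 CPM with TCA. It was 1072, 797 and 1091 CPM in GCA replicates 3, 4 and 5 and 325, 384 and 877 CPM in the Tβ-MCA replicates of the same numbers. All 12 monocyte markers had a negative log2 fold change between Tβ-MCA and PBS, beside the same median of all genes. Of the 12, 0 passed the adjusted threshold with all samples. Without Tβ-MCA replicate 5, 10 of them were lower, again beside 1617 of 17131 among all genes. In such bulk samples, fewer cells of a type and less RNA per cell cannot be told apart.

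Fn3k was barely expressed in PBS-treated neutrophils and was far higher with Tβ-MCA. Its level was 0.344, 0.647 and 0.270 CPM in PBS replicates 3, 5 and 6, from 12, 22 and 10 counts. With Tβ-MCA, replicates 3, 4 and 5 had 6.31, 5.97 and 2.41 CPM, from 211, 221 and 90 counts. Every Tβ-MCA sample was above every PBS sample, as in 14.1% of all genes tested. Replicate 5, the library with the low response score, was the lowest of its group at 0.392 times the mean of the others. The group means were 4.90 ± 2.16 CPM (SD, n = 3) with Tβ-MCA and 0.420 ± 0.200 CPM (SD, n = 3) with PBS. The fitted log2 fold change was 3.54, an 11.6-fold difference, which was the highest among the 16761 genes tested. Without Tβ-MCA replicate 5 it was 3.87. These values belong to the contrast that chose the gene, and no test is given for them.

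**Figure D1:**
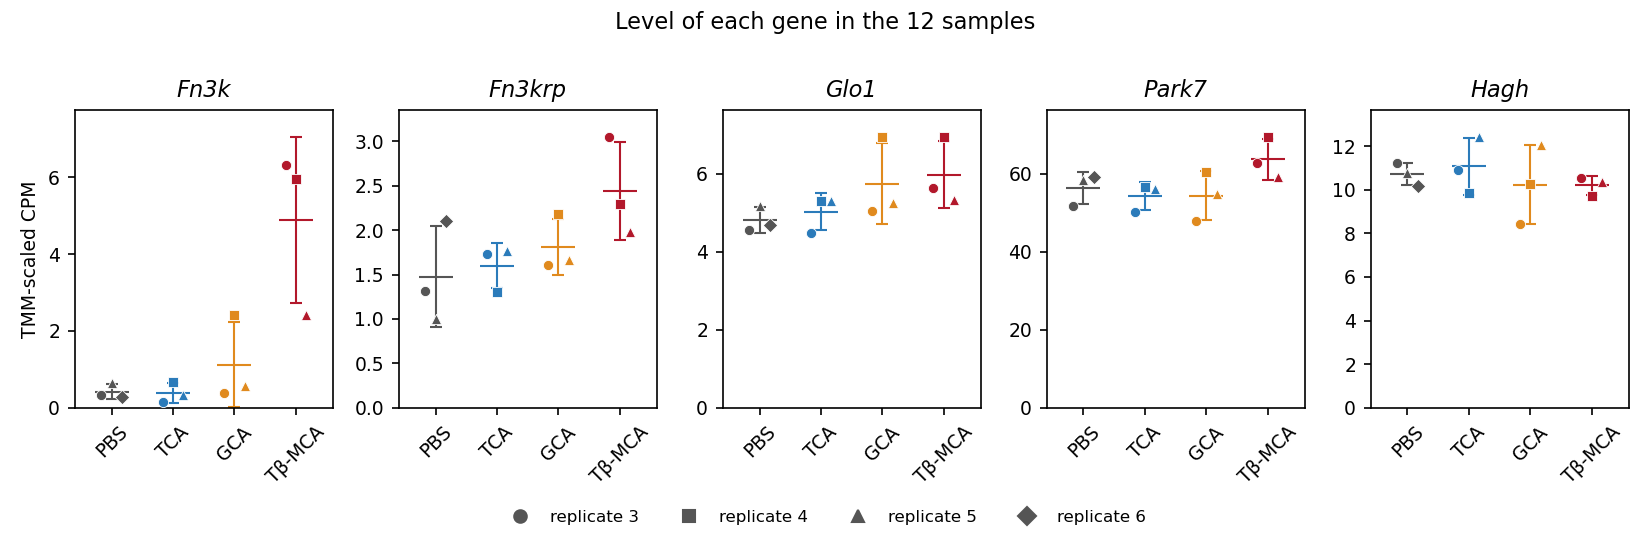
Level of the 5 genes in the 12 samples. The y axis gives TMM-scaled CPM from 0, on its own scale for each gene, the symbols are the samples by replicate number, and the horizontal lines and bars are the group mean and SD (n = 3). Fn3k lies between 2.41 and 6.31 CPM with Tβ-MCA and between 0.270 and 0.647 CPM with PBS, and the GCA sample that stands apart is replicate 4 at 2.41 CPM.

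With TCA, the Fn3k levels overlapped those of PBS, with replicate 3 below the range of PBS and replicate 4 slightly above it. Replicates 3, 4 and 5 had 0.155, 0.677 and 0.325 CPM, and the mean was 0.386 ± 0.266 CPM (SD, n = 3). The lowest value rested on 5 counts, whose exact 95% Poisson interval is 1.62 to 11.7 counts and covers counting error only. The log2 fold change between TCA and PBS was -0.06, again without a test because the PBS samples are shared with the contrast that chose the gene.

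With GCA, 1 of 3 samples was above the range of PBS. Replicates 3 and 5 had 0.394 and 0.571 CPM, which lie within the range of PBS. Replicate 4 had 2.41 CPM, from 84 counts with an interval of 67.0 to 104 counts, and was 4.99 times the mean of the other GCA samples. The 90 counts of Tβ-MCA replicate 5, also 2.41 CPM, have an interval of 72.4 to 111 counts. The group mean of 1.12 ± 1.11 CPM (SD, n = 3) had an SD about as large as the mean. The log2 fold change against PBS was 1.41, and it was 0.21 without GCA replicate 4. In order of the group means, TCA, PBS and GCA overlapped in their Fn3k levels. Tβ-MCA was not tested against TCA or GCA, since the labels give it another dose.

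TCA and GCA differ in the amino acid joined to cholic acid and were given at the same dose for the same time, and this is the only pair of bile acids whose doses match in the labels. None of these samples was used to choose Fn3k. Its log2 difference between GCA and TCA was 1.48 (SE 0.77), with a 95% interval of -0.24 to 3.19, and did not pass edgeR's quasi-likelihood test (adjusted p = 0.9998). Leaving out GCA replicate 4 gave 0.28 (adjusted p = 1.0 in edgeR). Without a filter on low counts, the difference of 1.47 passed with an adjusted p of 0.00284 in edgeR, although the values of the samples are the same and their ranges overlap. The other 4 genes differed by 0.18 (Fn3krp, 95% interval -0.39 to 0.76), 0.19 (Glo1, -0.14 to 0.52), 0.00 (Park7, -0.19 to 0.20) and -0.11 (Hagh, -0.38 to 0.16) on the log2 scale. None of the 5 genes was called in this comparison, in which 0% of all genes tested were called. There were 412 genes at an unadjusted p under 0.05, and DESeq2 also called 0 genes. For Fn3k the interval covers differences between the conjugates in either direction.

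The 4 samples with the highest Fn3k levels, all 3 with Tβ-MCA and GCA replicate 4, were also the 4 with the highest response scores and the lowest monocyte marker sums. Fn3k was chosen for its rise with Tβ-MCA, so its high levels in the Tβ-MCA samples follow from the choice. Of the 4, only GCA replicate 4 was in none of the groups compared to choose Fn3k or the score's genes. The high scores of Tβ-MCA replicates 3 and 4 follow from how the score was made. Monocyte markers were not left out of its genes, so the score and the marker sum are not separate readouts. Placed on a log2 scale with the PBS mean at 0 and the mean of Tβ-MCA replicates 3 and 4 at 1, Fn3k reached 0.648 in both GCA replicate 4 and Tβ-MCA replicate 5. These samples had response scores of 0.589 and 0.509 over the 176 higher genes and of 0.277 and 0.217 over the 497 lower genes, and monocyte marker sums of 797 and 877 CPM. In the 3 PBS, 3 TCA and 2 remaining GCA samples, Fn3k stayed at or below 0.677 CPM and the monocyte sum at or above 998 CPM. Within these 8 samples the order was different. TCA replicate 3 had the lowest Fn3k level of all samples (0.155 CPM) with the lowest monocyte sum (998 CPM) and the highest score (0.106) of the 8, and TCA replicate 4 had the highest Fn3k level of the 8 (0.677 CPM) with a monocyte sum of 1174 CPM. Summed eosinophil markers were 58.4 to 131 CPM with Tβ-MCA and 144 to 256 CPM with PBS. They were 139 to 226 CPM with TCA and 119 to 249 CPM with GCA (lowest in replicate 4). The highest value was that of replicate 3 in PBS, TCA and GCA and that of replicate 5 with Tβ-MCA. The part of these markers in the result was not tested. Fructosamine-3-kinase is known for its high activity in red blood cells. The summed level of 10 erythroid genes, globins included, was 3.33 to 4.72 CPM with PBS, 3.38 to 5.55 CPM with TCA, 3.52 to 4.78 CPM with GCA (highest in replicate 4) and 2.96 to 4.32 CPM with Tβ-MCA.

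**Figure D2:**
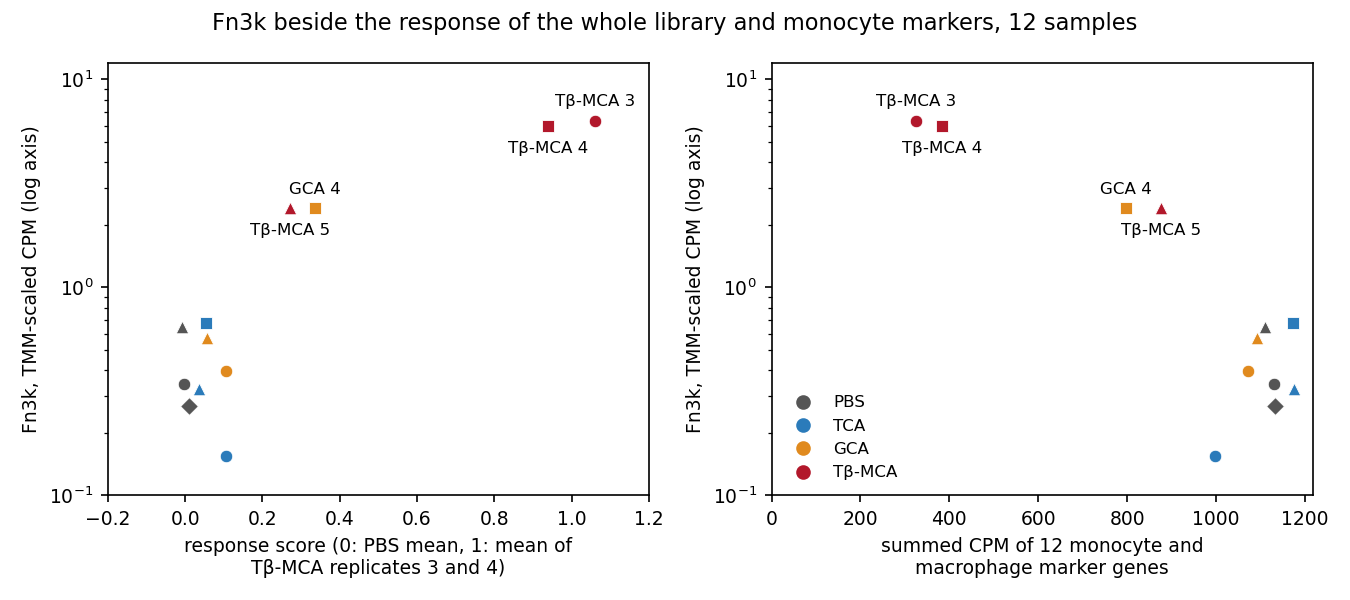
Fn3k in each of the 12 samples beside the response score (left) and beside the summed level of 12 monocyte and macrophage markers (right). The y axes give Fn3k in TMM-scaled CPM on a log axis, colors mark the groups and symbols the replicate numbers. GCA replicate 4 and Tβ-MCA replicate 5 lie together at 2.41 CPM, between the other Tβ-MCA samples and the remaining 8 samples.

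Fn3krp, the paralogue next to Fn3k, had a higher mean with Tβ-MCA, but the groups overlapped. Its level was 1.32, 1.0 and 2.10 CPM in PBS replicates 3, 5 and 6 and 3.05, 2.30 and 1.98 CPM in replicates 3, 4 and 5 with Tβ-MCA. PBS replicate 6 lay above Tβ-MCA replicate 5. The log2 fold change was 0.72 (SE 0.27), and it did not pass edgeR's quasi-likelihood test after adjustment (adjusted p = 0.109, unadjusted p = 0.0166). Leaving out Tβ-MCA replicate 5 gave 0.85 (adjusted p = 0.0519 in edgeR). With the replicate number as a block it was 1.08 and passed (adjusted p = 0.0271 in edgeR). No other sample shares the number of PBS replicate 6, so that fit does not use this sample for the difference. Leaving out PBS replicate 6 without a block gave 1.07 (adjusted p = 0.0536 in edgeR). With TCA the samples had 1.74, 1.31 and 1.76 CPM and with GCA 1.61, 2.18 and 1.66 CPM, and the log2 fold changes of 0.11 and 0.29 against PBS did not pass.

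The pair can be compared per length by RPKM (reads scaled to exon length and library size). With PBS, mean RPKM was 0.0944 for Fn3k and 0.579 for Fn3krp, and with Tβ-MCA it was 1.14 and 0.990. The ratio of Fn3k to Fn3krp was 0.149, 0.371 and 0.0734 in PBS replicates 3, 5 and 6. It was 1.19, 1.49 and 0.697 in Tβ-MCA replicates 3, 4 and 5, so that Fn3k exceeded its neighbour in RPKM in 2 of 3 Tβ-MCA samples and in none of the others. GCA replicate 4 had the next highest ratio, 0.633.

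The differences of the glyoxalases and DJ-1 were smaller. Glo1 had 4.56, 5.18 and 4.69 CPM in PBS replicates 3, 5 and 6 and 5.62, 6.94 and 5.33 CPM in replicates 3, 4 and 5 with Tβ-MCA. All Tβ-MCA samples were above all PBS samples, as was the case for 14.1% of all genes tested. Its log2 fold change of 0.31 (SE 0.15) did not pass edgeR's test (adjusted p = 0.226). GCA replicate 4 had 6.93 CPM of Glo1, close to the highest Tβ-MCA sample, while GCA replicates 3 and 5 had 5.04 and 5.24 CPM. TCA samples had 4.47, 5.29 and 5.31 CPM.

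Hagh, which completes the glyoxalase reactions, overlapped between all groups. It had 11.2, 10.8 and 10.2 CPM in PBS replicates 3, 5 and 6 and 10.5, 9.72 and 10.3 CPM in replicates 3, 4 and 5 with Tβ-MCA. The log2 difference was -0.073 (SE 0.13, adjusted p = 0.776 in edgeR), and its 95% interval was -0.34 to 0.20. The other samples lay between 8.42 and 12.4 CPM.

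Park7 was the most abundant of the 5 genes, with a mean RPKM of 22.5 in PBS against 5.55 for Hagh and 2.46 for Glo1. It had 51.8, 58.4 and 59.2 CPM in PBS replicates 3, 5 and 6 and 62.7, 69.5 and 59.1 CPM in replicates 3, 4 and 5 with Tβ-MCA. PBS replicate 6 was slightly above Tβ-MCA replicate 5, and the log2 fold change of 0.18 (SE 0.092) did not pass edgeR's test (adjusted p = 0.252). The samples with TCA and GCA lay between 48.0 and 60.5 CPM.

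Of the 4 genes that were not chosen by this contrast, 0 were called with Tβ-MCA, where 7.62% of all genes tested were called (745 higher and 533 lower). At the thresholds the study names, an unadjusted p of 0.05 and a fold change of 2, 494 genes (2.95%) passed, and the balance turned to 182 higher and 312 lower. At an unadjusted p under 0.05, 1 of the 4 passed, against 24.9% of all genes. With TCA or GCA against PBS, no gene of the table was called by edgeR, 0% in each case, with 546 and 591 genes at an unadjusted p under 0.05 and 1 and 0 genes called by DESeq2. The number called with Tβ-MCA rested on the samples used. It was 3076 of 17131 genes (18%) without Tβ-MCA replicate 5, 0 without Tβ-MCA replicate 3 or 4 or PBS replicate 3 or 5, 168 without PBS replicate 6, and 0 when the spread was estimated from PBS and Tβ-MCA alone.

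**Figure D3:**
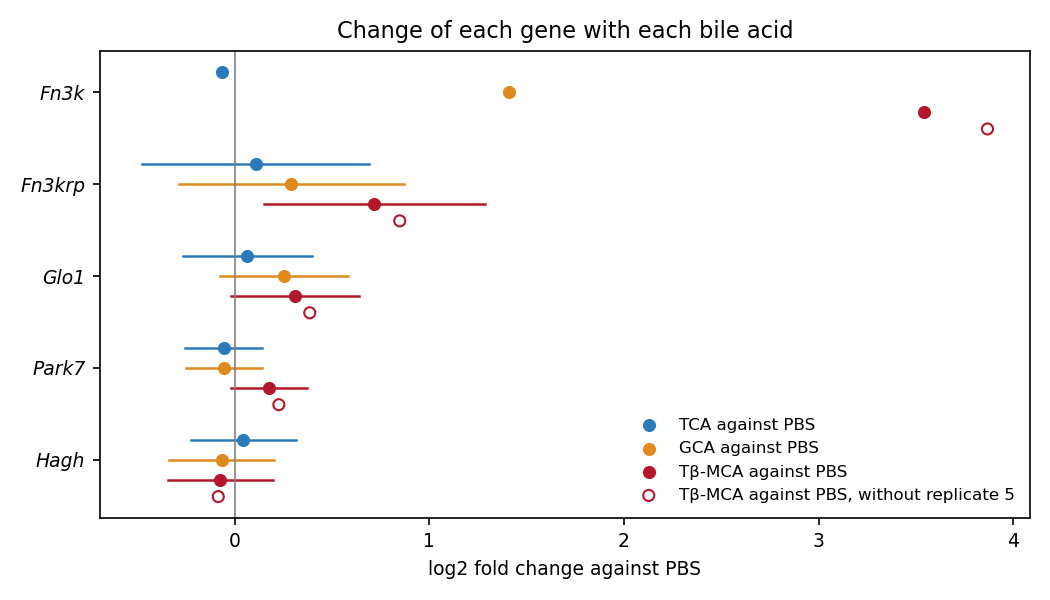
Log2 fold change of the 5 genes against PBS with TCA, GCA and Tβ-MCA, 3 samples per group. Filled points are the fitted values, lines are 95% intervals, and open points leave out Tβ-MCA replicate 5. Fn3k has no intervals because it was chosen on a contrast with these PBS samples. Its filled points lie at 3.54 with Tβ-MCA and 1.41 with GCA, while the filled points of the other 4 genes lie between -0.073 and 0.72.

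Within 100 kb of Fn3k on chromosome 11 the table lists 5 other genes, and none of the 3 that were tested passed with Tβ-MCA. Tbcd, a tubulin folding cofactor that starts 1458 bases after the end of Fn3k, had 14.98 to 23.3 CPM in the 12 samples and a log2 fold change of 0.11 with Tβ-MCA (SE 0.12, adjusted p = 0.632 in edgeR). Wdr45b, an autophagy gene, had 24.0 to 32.6 CPM and a log2 fold change of -0.12 (SE 0.099, adjusted p = 0.507). Fn3krp is described above. Rab40b and Zfp750 had at most 4 and 11 counts in any sample and were not tested.

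The genes whose levels followed Fn3k most closely over the 12 samples were Smyd3, Kifc2, Rnf157, Dtx4 and Sumf1, with Pearson's r of 0.971, 0.970, 0.969, 0.966 and 0.964 in log2 CPM. Smyd3 encodes a lysine methyltransferase, Kifc2 a kinesin, Rnf157 and Dtx4 E3 ubiquitin ligases, and Sumf1 the enzyme that activates sulfatases. Smyd3, for example, had 5.14 to 7.83 CPM with PBS and 10.3 to 13.4 CPM with Tβ-MCA, and 10.6 CPM in GCA replicate 4 against 5.75 and 6.43 CPM in the other GCA samples. At the opposite end were Glrx, Eif4enif1, Adtrp, D1Ertd622e and Dgka, with r between -0.965 and -0.954. Glrx, which encodes glutaredoxin and reduces disulfides with glutathione, had 37.2 to 43.2 CPM with PBS and 26.6 to 33.5 CPM with Tβ-MCA. Rnf157, Sumf1, Eif4enif1, Adtrp and Dgka overlap other genes in the table, so their counts are less certain. Correlations of this size were common, with 185 of 16760 genes at 0.9 or above and 148 at -0.9 or below, and the points share libraries that stand apart. Over the 9 samples without Tβ-MCA, the same 10 genes had r of 0.83 to 0.93 in size. Over the 8 samples that also exclude GCA replicate 4, it was 0.54 to 0.84 in size. The 10 genes were picked over all 12 samples, which include these, so these values are not a separate check. Of the other deglycation genes, Glo1 (r = 0.804) and Park7 (r = 0.799) had higher r with Fn3k than Fn3krp (r = 0.604) and Hagh (r = -0.229) over all samples. Over the 9 samples without Tβ-MCA, r was 0.934 for Glo1, 0.574 for Park7, 0.071 for Fn3krp and -0.137 for Hagh, and over the 8 samples it was 0.784, 0.391, -0.648 and -0.078.

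The wider pathways around protein glycation were described with 8 lists of 62 genes, of which 57 were tested. With Tβ-MCA, 3 of these 57 genes were called higher and 3 lower, beside 4.44% higher and 3.18% lower among all genes. The median log2 fold change of the 57 genes was 0.0043 and that of all genes was 0.0041. With TCA or GCA, 0 of the 57 were called. All 6 calls were lost, along with all other calls of the lists, in 5 of the 6 fits that left out 1 sample. Without Tβ-MCA replicate 5, 6 were higher and 9 lower. In that fit 18% of all genes were called, 1459 higher and 1617 lower of 17131.

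The list of polyol and fructose genes held 2 of the 3 genes that rose, one that makes fructose and one that uses it. Sord, sorbitol dehydrogenase, had 21.7, 20.9 and 22.4 CPM in PBS replicates 3, 5 and 6 and 31.7, 33.0 and 25.1 CPM in replicates 3, 4 and 5 with Tβ-MCA, a log2 fold change of 0.47 (adjusted p = 0.0235 in edgeR). Khk, ketohexokinase, which phosphorylates fructose, had 33.4, 39.2 and 41.0 CPM with PBS and 61.0, 57.2 and 42.2 CPM with Tβ-MCA, a log2 fold change of 0.50 (adjusted p = 0.0285 in edgeR). In both genes, picked because they were called, every Tβ-MCA sample was above every PBS sample, as in 14.1% of all genes tested. Tβ-MCA replicate 5 was the lowest of its group. For Khk it lay below TCA replicate 5 (42.8 CPM) and GCA replicates 4 and 5 (47.6 and 43.1 CPM). For Sord it lay above all TCA and GCA samples, of which GCA replicate 4 was the highest (24.9 CPM). Sord and Khk were the only genes of this list of 3 that could be tested. Akr1b3, aldose reductase, which opens the polyol route and stands in the list of dicarbonyl reductases, had a log2 fold change of -0.18 (adjusted p = 0.37 in edgeR).

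Keap1, the third gene that rose, encodes the sensor that keeps NRF2, a regulator of antioxidant genes, at a low level. It had 43.9, 44.9 and 43.6 CPM in PBS replicates 3, 5 and 6 and 57.3, 59.3 and 50.3 CPM in replicates 3, 4 and 5 with Tβ-MCA (log2 fold change 0.33, adjusted p = 0.0208 in edgeR). Hmox1, heme oxygenase 1 and the most highly expressed gene of the NRF2 list by RPKM, had means of 209 CPM with PBS and 209 CPM with Tβ-MCA (log2 fold change 0.0046, adjusted p = 0.979 in edgeR). Of the 6 genes of this list, 1 rose and 0 fell.

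The 3 genes that fell belonged to 3 different lists. Hk3, the hexokinase typical of myeloid cells, had 382, 364 and 350 CPM in PBS replicates 3, 5 and 6 and 213, 243 and 318 CPM in replicates 3, 4 and 5 with Tβ-MCA (log2 fold change -0.50, adjusted p = 0.0307 in edgeR). Aldh1b1, a mitochondrial aldehyde dehydrogenase, had 3.84, 4.53 and 5.34 CPM with PBS and 1.91, 1.84 and 3.27 CPM with Tβ-MCA (-0.96, adjusted p = 0.0331). Olr1, a scavenger receptor for oxidized lipoprotein that also binds AGEs, had 18.2, 12.5 and 13.9 CPM with PBS and 10.7, 9.40 and 10.5 CPM with Tβ-MCA (-0.54, adjusted p = 0.0473). In these 3 genes, picked because they were called, every Tβ-MCA sample was below every PBS sample, as in 12.8% of all genes tested.

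Among the 9 AGE-binding receptors tested, 1 fell, where 3.18% of all genes tested were called lower. A negative log2 fold change was seen in 8 of the 9 with all samples, where the median of all genes was 0.0041. Without Tβ-MCA replicate 5, 4 were lower, beside 1617 of 17131 among all genes. Msr1 and Stab1, scavenger receptors that macrophages express, were chosen for mention after their values were seen. Msr1 had 21.2, 29.6 and 32.2 CPM in PBS replicates 3, 5 and 6 and 1.73, 2.51 and 21.2 CPM in replicates 3, 4 and 5 with Tβ-MCA, and its log2 fold change was -1.69 (adjusted p = 0.228 in edgeR) with all samples and -3.69 without replicate 5. Stab1 had a log2 fold change of -0.76 (adjusted p = 0.129) and -1.19 without it. The monocyte and macrophage marker sums given above were also lowest in Tβ-MCA replicates 3 and 4, and their part in these values was not tested. Lgals3, galectin-3, the most highly expressed of these receptors by RPKM, had a log2 fold change of -0.21 (adjusted p = 0.141).

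**Figure D4:**
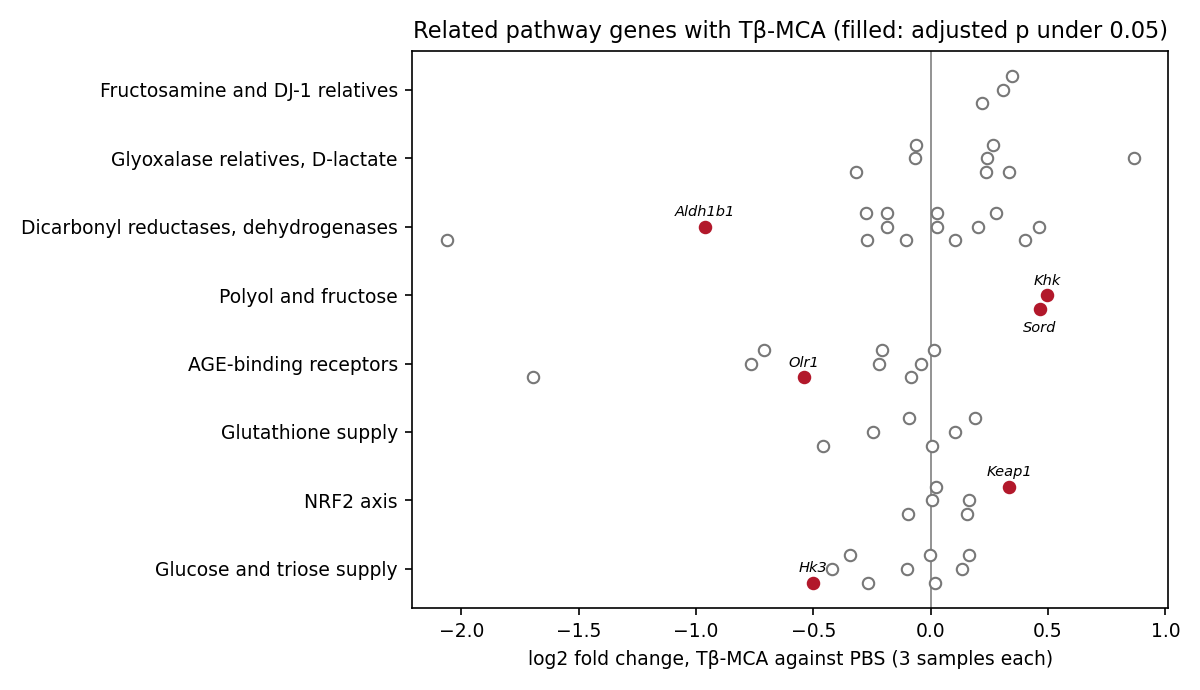
Log2 fold change between Tβ-MCA and PBS, 3 samples each, for the 57 pathway genes tested, by list. Filled points are the 6 genes with an adjusted p under 0.05 and open points the others, and the vertical spread within a list has no meaning. Calls lie on both sides of 0, with 3 genes higher and 3 lower.

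In the remaining lists no gene was called with all samples, apart from Aldh1b1 and Hk3 in theirs. The 3 relatives of fructosamine repair and DJ-1 (Mdp1, Gatd3a and Gatd1) all had positive log2 fold changes. Their median was 0.31, beside 0.0041 over all genes, and 0 of them were called. Gatd3a, listed under an older symbol and the most highly expressed of them by RPKM, had 12.2, 16.4 and 16.8 CPM in PBS replicates 3, 5 and 6 and 19.1, 19.9 and 17.2 CPM in replicates 3, 4 and 5 with Tβ-MCA (0.31, adjusted p = 0.0991 in edgeR). Of the 8 glyoxalase relatives and D-lactate genes tested, 0 were called, and Ethe1, a mitochondrial sulfur dioxygenase and the most highly expressed by RPKM, had a log2 fold change of -0.065. The 6 genes of glutathione supply had 0 calls, with Gsr, glutathione reductase, at 0.10. Aldh2, the most highly expressed of the dicarbonyl reductases and dehydrogenases by RPKM, had 0.10, and Gpi1, a glycolytic isomerase and the highest in the list of glucose and triose supply, had 0.02. None of these 4 genes passed edgeR's test. Without Tβ-MCA replicate 5, 1 of the 3 relatives of fructosamine repair and DJ-1 and 2 of the 8 glyoxalase relatives and D-lactate genes were called higher. Among all genes 1459 of 17131 were called higher in that fit. It called 1 gene lower in the list of dicarbonyl reductases, 4 in that of glucose and triose supply and 0 in that of glutathione supply, beside 1617 of 17131.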

How the data were processed

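Bone marrow neutrophils of mice were sequenced in 4 groups of 3 samples. Per the labels, the libraries were stranded mRNA libraries, and the submitters' processing notes name Trimmomatic 0.36, STAR 2.5.3a, featureCounts of Subread 1.5.1 and GRCm38. The authors deposited raw read counts per gene, without normalization, and RPKM values calculated from them, and RPKM recalculated from the counts differed by at most 1.3e-06 in relative terms. Whether counting used the strand is not given in the sources used here. In each sample there were at least 2.93 times as many genes at 2 counts as at 1 count, so counting intervals may be too narrow. Intervals and floors cover counting error only. A gene was taken as detectable from 3 counts, which is 0.0725 to 0.0916 CPM.

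Counts were normalized with TMM, filtered with filterByExpr by group (16761 genes left) and compared with edgeR 4.0.16's robust quasi-likelihood test in R 4.3.3, with all 12 samples sharing the estimate of the spread and Benjamini-Hochberg adjustment over all genes tested. A gene was called at an adjusted p under 0.05. Log2 CPM used a prior count of 2. The test was checked on simulated data. The 5 genes, the lists and the tests were chosen with earlier results of these data known. Named genes were the 5 genes, genes within 100 kb of Fn3k, the 5 most and the 5 least correlated with Fn3k, and in each list those called with Tβ-MCA and the one with the highest RPKM. The columns of the deposited table were matched to samples by name (0 left unmatched). GCA columns carry the short name GA, which the series' design text uses for the same treatment.

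Alternatives were other size factors, DESeq2 1.42.0, limma 3.58.1 on log2 RPKM, other filters, only the groups compared, the replicate number as a block, and leaving out each sample.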

Additional observations from a re-analysis of the deposited data

How the results depend on the processing

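In the 12 alternatives that could be fitted, the log2 fold change of Fn3k with Tβ-MCA, whose direction was fixed by the choice of the gene, was 2.82 to 3.98. The RPKM filter of limma and the filter of at least 10 counts removed Fn3k. Leaving out each sample moved its difference between 0.21 and 1.85 for GCA against PBS, and between -0.77 and 0.38 for TCA against PBS. Between GCA and TCA it was 1.47 (adjusted p = 0.00284 in edgeR) without a filter, and the cause was not tested. The number of genes called with Tβ-MCA was 2079 with DESeq2, 689 with limma at a pseudocount of 0.1, 2406 without a filter, 0 with only the groups compared and 0 to 3076 when 1 sample was left out. For pathway genes called higher these were 0 with only the groups compared and 0 to 6. For those called lower they were 7 with DESeq2, 1 and 0 with limma at pseudocounts of 1 and 0.1, 8 without a filter, 0 with only the groups compared and 0 to 9. Without a filter 37, 36 and 42 genes were called for TCA against PBS, GCA against PBS and GCA against TCA, and DESeq2 called 1 with TCA. Small differences that changed sign when 1 sample was left out ranged from -0.10 to 0.46 (Fn3krp) and -0.047 to 0.12 (Hagh) with TCA, from -0.14 to 0.029 (Park7) and -0.20 to 0.056 (Hagh) with GCA, and from -0.079 to 0.086 (Park7) and -0.24 to 0.012 (Hagh) between GCA and TCA. Of the 5 genes most like Fn3k, 2 were kept with total library size and 1 without Tβ-MCA replicate 5, and of the 5 least like it, 3 and 2.

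Same-numbered samples are not stated to share a mouse or a day, and their deviations correlated by 0.0597 to 0.326, against means of -0.09 to -0.04 for different numbers in the 4 comparisons. Number 3 had r of 0.24 to 0.33, while other numbers fell below 0.1 in 2 pairs. These pairs hold Tβ-MCA replicate 5 and GCA replicate 4, the libraries that stood apart from their groups. Among the TCA samples, GCA replicate 4 correlated best with replicate 5. The numbers were not taken to pair the samples, and whether same-numbered samples share a mouse or a day was not tested. In the fit with the replicate number as a block, no other sample shared the number of PBS replicate 6. That sample therefore did not inform the differences from PBS there. In this fit the log2 fold change of Fn3k was 2.82 with Tβ-MCA, 0.49 with GCA and -0.92 with TCA. Fn3krp with Tβ-MCA was 1.08 and passed (adjusted p = 0.0271 in edgeR). Glo1 with TCA turned to -0.057, and the genes called numbered 1498 with Tβ-MCA and 3 with TCA.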
